A study of Mus musculus with 12 samples.

Results

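The genes described here were grouped as signalling genes of the corticotroph, the cell of the anterior pituitary that makes corticotropin. They are Crhr1, Avpr1b, Crhbp, Lif, Lifr, Il6st, Gpr65 and Neurod1. The 8 genes were taken by name and found by an exact match of the gene symbol. Of these, 7 were among the 18497 named genes of the table, and Crhbp, which encodes the secreted binding protein of corticotropin-releasing hormone, had no row and was not analysed here.

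The study measured total RNA, depleted of ribosomal RNA, from pituitary glands of adult male mice. In the let-7f mimic group (n = 6 glands), zygotes had been injected with a locked nucleic acid mimic of the microRNA let-7f-5p, at a concentration that the labels call stress-relevant. In the vehicle group (n = 6 glands), zygotes had been injected with the nuclease-free water in which the mimic was dissolved. All 12 animals were wild-type F1 offspring labelled C57BL/6Jx129S1/SvlmJ, and all embryos had been transferred to CD1 recipient dams. Litter and dam are not given, so the p-values rest on the spread between glands alone. Each gland gave 1 library, with 26378308 to 37061136 recovered reads over named genes, and values are normalised read counts. The whole gland was used, so that fewer cells of a type and less RNA per cell cannot be told apart. Which cells supplied the reads of each gene was not tested. Pomc, Tbx19, Pitx1 and Pcsk1, listed here as markers shared by corticotrophs and melanotrophs, were present in all 12 libraries. Their presence does not measure the number of these cells.

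Corticotropin is cut from the precursor pro-opiomelanocortin, the product of Pomc. Corticotropin-releasing hormone acts on corticotrophs through CRHR1, which couples to cyclic AMP and protein kinase A, and vasopressin acts through AVPR1B, which couples to phospholipase C and protein kinase C. Leukaemia inhibitory factor (LIF) binds LIFR together with gp130, the product of Il6st, and signals through JAK kinases and STAT3 to the Pomc promoter. NEUROD1 is a basic helix-loop-helix factor that acts on the Pomc promoter in corticotrophs, beside the lineage factor TBX19 (Tpit). Melanotrophs of the intermediate lobe also make Pomc and TBX19, are defined by PAX7, and cleave the precursor further.

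The injected molecule is shown here because the comparison of the groups rests on it. The mature sequence in RefSeq (build GRCm38.p6) and the sequence in the labels were identical, and the capitals mark the seed, bases 2 to 8:
let-7f-5p: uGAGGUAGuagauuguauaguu
Its 22 bases are encoded at chr13:48537889-48537910 on the minus strand (Mirlet7f-1) and at chrX:151912353-151912374 on the plus strand (Mirlet7f-2). The reverse complement of the seed, CTACCTC, was searched on the transcript strand of the 3' untranslated region of each gene's longest coding transcript in GENCODE M21 (GRCm38). Other forms of seed match and other transcripts were not searched. The searched match was found in 0 of the 8 genes, whose regions were 541 to 6320 bases long. Among tested genes with such a region, 1575 of 15426 (10.2%) held a match. For regions within 25% of the length of each of the 8, the share with a match lay between 4.08% and 32.1%.

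The order of expression was led by the gp130 receptor chains. Per kilobase of the longest coding transcript (GENCODE M21 lengths), Il6st had a level of 1035 ± 138 normalised counts over the 12 glands (mean ± SD), and Lifr had 463 ± 72.3. The hormone receptors came next, with 212 ± 30.05 for Crhr1 and 68.1 ± 10.1 for Avpr1b. Neurod1 stood at 53.1 ± 9.55, Gpr65 at 18.6 ± 4.50 and the ligand gene Lif at 10.5 ± 3.67 on the same scale.

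Neighbours in this order were separated in every gland except for the last pair, where Gpr65 was above Lif in 10 of 12 glands. The ranges over glands overlapped for Avpr1b and Neurod1 and for Gpr65 and Lif, and for no other neighbours. The levels depend on which transcript is taken. With the second longest coding transcript, Il6st had 1725 and Lifr 1078 normalised counts per kilobase, still first and second. Avpr1b has a second annotated coding transcript of 623 bases, with which its level would be 440 and above that of Crhr1. Transcripts annotated as incomplete were not excluded in taking the second longest. The 623-base transcript may therefore be a fragment, and the order of Avpr1b and Crhr1 is not decided by it. The transcripts actually used in these glands were not resolved in the table.

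**Figure D1:**
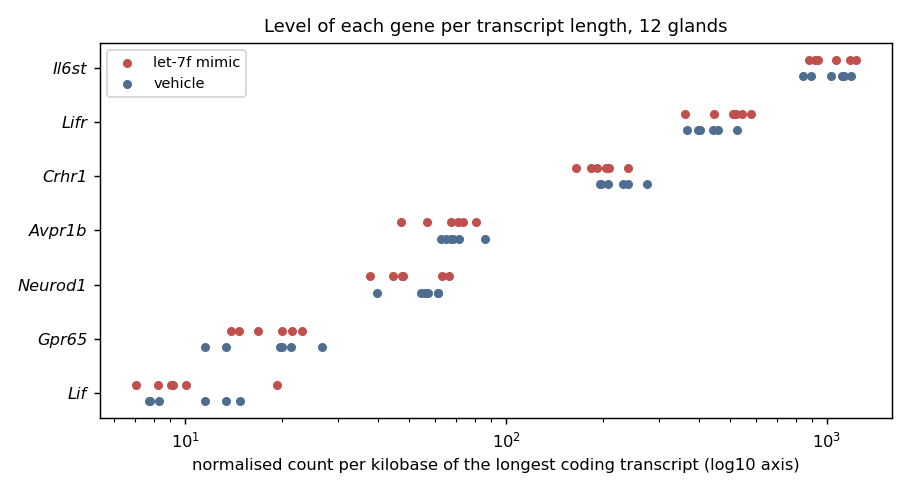
Normalised counts per kilobase of the longest coding transcript (log10 axis) for the 7 measured genes, 1 point per gland, let-7f mimic in red above vehicle in blue. The levels run from a mean of 1035 for Il6st to 10.5 for Lif, and the points of the groups overlap for every gene.

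None of the 7 measured genes differed between the groups past the threshold. The test was limma-trend on values taken as log2(normalised count + 1), and p was adjusted over the 18390 genes tested (Benjamini-Hochberg). It called 0 of 7 (smallest adjusted p 0.976), as it called 0% of all genes. At an unadjusted limma p under 0.05 there were 0 of 7, where 4.78% of all genes passed. On recovered reads, edgeR and DESeq2 each called 0 of the 7, against 0% and 0.0544% of all genes. At an unadjusted p under 0.05 edgeR passed 0 of the 7 (4.72% of all genes) and DESeq2 0 (5.04%). The values of the groups overlapped for all 7 genes, while 0.12% of all genes had groups that did not overlap. The median log2 fold change was -0.05 over the 7 genes, 2 positive and 5 negative, and -0.0005 over all genes, of which 50.2% were negative. No 95% interval of the 7 reached a doubling or a halving, and the same held for 93.6% of all genes tested.

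Crhr1, the receptor of corticotropin-releasing hormone, ranged from 406 through a median of 488 to 591 normalised counts in mimic glands, and from 483 through 539 to 678 in vehicle glands. Mimic library 4 was lowest and vehicle library 4 highest, and 5 of 6 mimic glands lay below the vehicle mean. The means were 490 ± 62.9 in mimic and 552 ± 75.8 in vehicle glands (± is the SD, n = 6 each). On the log2 scale the difference was -0.17 (SE 0.11; limma adjusted p 0.976), a difference of -11.2% with a 95% interval of -24.1% to 3.89%.

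Avpr1b, the pituitary vasopressin receptor, ranged from 190 through 278 to 324 normalised counts in mimic glands, and from 253 through 273 to 345 in vehicle glands. The extremes were the same libraries as for Crhr1, mimic 4 and vehicle 4, with 3 mimic glands above and 3 below the vehicle mean. On the log2 scale it differed by -0.10 (SE 0.13; limma adjusted p 0.976), or -6.90% with an interval of -23.0% to 12.6%.

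Gpr65 encodes a proton-sensing receptor that raises cyclic AMP and is best known from leukocytes. It was low, with 28.7, 38.2 and 47.7 normalised counts as lowest, median and highest in mimic glands, and 23.9, 41.1 and 55.1 in vehicle glands. The groups differed by -0.0033 on the log2 scale (SE 0.21, adjusted p 0.999 by limma), and the interval ran from -27.5% to 37.3%. The libraries held 26 to 52 recovered reads of Gpr65. At the median of 39.5 reads, counting error alone gives a coefficient of variation of 15.9%, against 24.2% observed over the 12 glands.

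**Figure D2:**
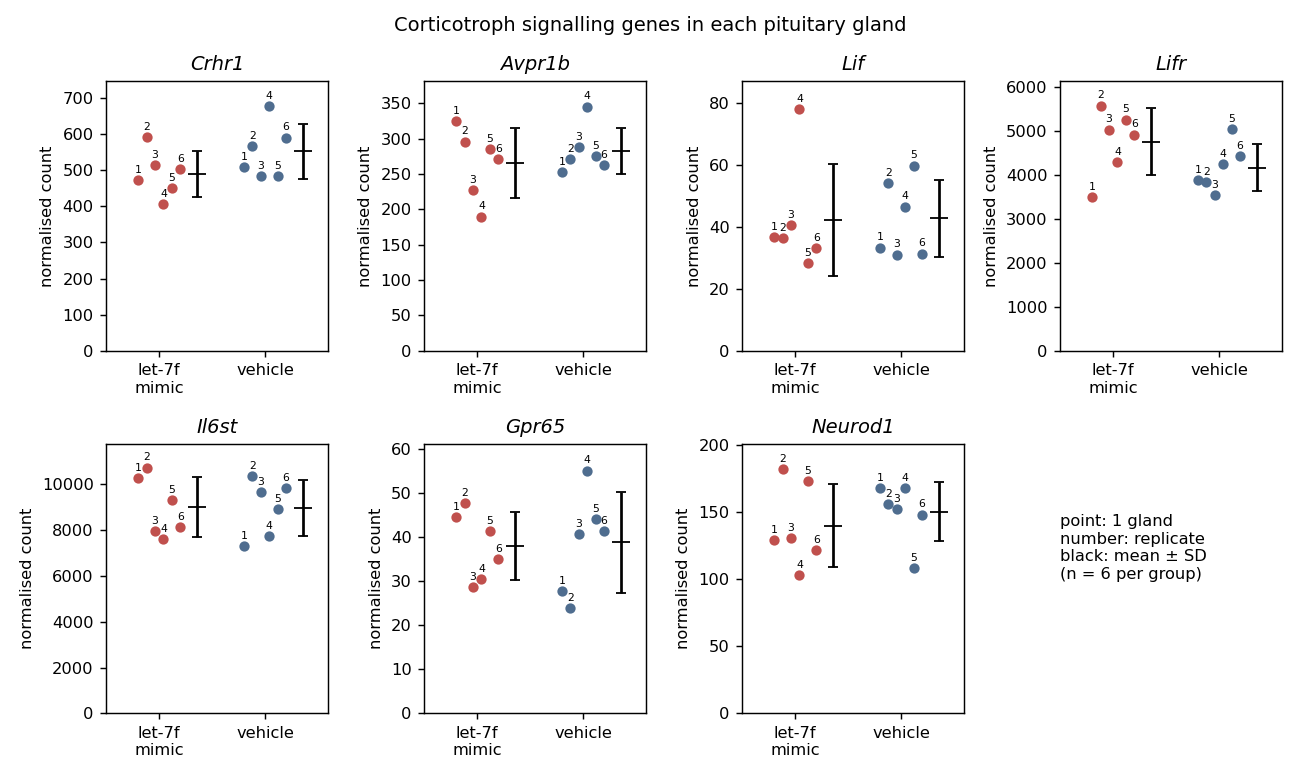
Normalised counts of the 7 measured genes in each gland, let-7f mimic (red, left) and vehicle (blue, right), with the replicate number at each point and the mean ± SD in black (n = 6 each). The groups overlap in every panel. Mimic 4 is lowest and vehicle 4 highest for Crhr1 and Avpr1b.

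Lif, the cytokine of the gp130 branch, ranged from 28.3 through 36.6 to 77.9 normalised counts in mimic glands, and from 31.0 through 39.9 to 59.7 in vehicle glands. The highest value belonged to mimic library 4, whose 69 recovered reads have an exact 95% Poisson interval of 53.7 to 87.3 reads for counting error alone. The other 5 mimic libraries lay at 40.5 or below. The mimic minus vehicle difference in log2 was -0.05 (SE 0.25, adjusted p 0.992 by limma), with the widest interval of the 7 genes, -33.2% to 39.9%.

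Lifr, the receptor chain specific to LIF and its nearest relatives, ranged from 3494 through 4979 to 5583 normalised counts in mimic glands, and from 3545 through 4070 to 5049 in vehicle glands. The means were 4765 ± 756 in mimic and 4166 ± 534 in vehicle glands (± is the SD, n = 6 each), with 5 of 6 mimic glands above the vehicle mean. In log2 units the difference was 0.19 (SE 0.11; limma adjusted p 0.976), or 13.8% with an interval of -3.48% to 34.2%. It had the smallest unadjusted p of the 7 genes (limma p 0.114), at rank 2061 of the 18390 tested.

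Il6st, which encodes the gp130 chain shared by the interleukin-6 family, ranged from 7617 through 8716 to 10721 normalised counts in mimic glands, and from 7283 through 9295 to 10339 in vehicle glands. Both groups covered nearly the same span, with 3 mimic glands above and 3 below the vehicle mean. The difference in log2 was 0.01 (SE 0.11, adjusted p 0.999 by limma), and its interval spanned -14.1% to 17.3%.

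Neurod1 ranged from 103 through 130 to 182 normalised counts in mimic glands, and from 108 through 154 to 168 in vehicle glands. The lowest value of each group belonged to the gland with the most Pomc of that group, mimic 4 and vehicle 5. The means were 140 ± 30.8 in mimic and 150 ± 21.9 in vehicle glands (± is the SD, n = 6 each). Neurod1 differed by -0.11 in log2 (SE 0.15, adjusted p 0.976 by limma), its interval reaching from -26.5% to 16.2%.

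**Figure D3:**
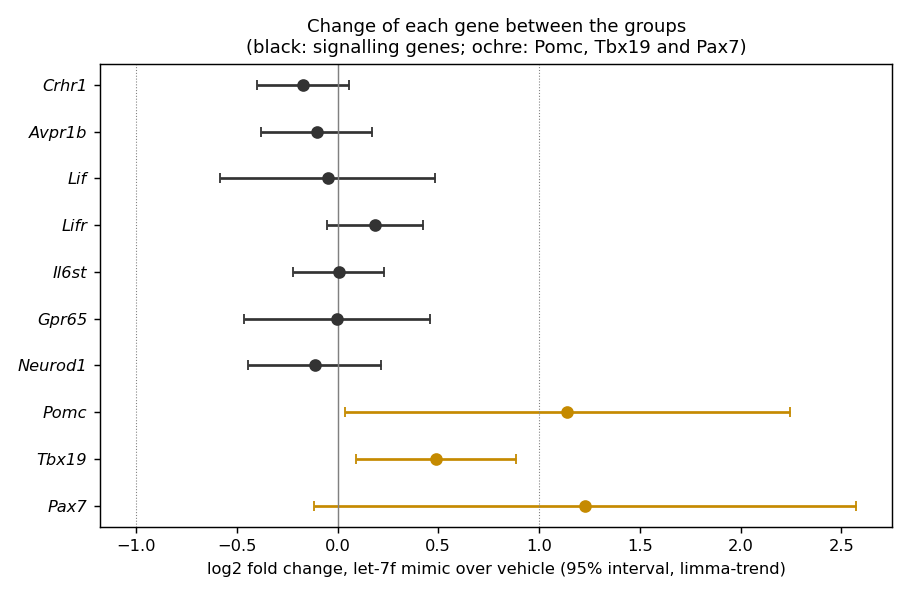
Log2 fold change of let-7f mimic over vehicle with its 95% interval from limma-trend (n = 6 each), for the 7 signalling genes in black and for Pomc, Tbx19 and Pax7 in ochre. The black intervals lie between -0.58 and 0.48, and all 7 include 0. The ochre intervals of Pomc and Tbx19 lie above 0, and that of Pax7 includes 0. None of the 10 genes passed the adjusted threshold.

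Pomc varied more between glands than any of the 7 genes. Pomc ranged from 125740 through 301607 to 606984 normalised counts in mimic glands, and from 45286 through 140399 to 400805 in vehicle glands, a 13.4-fold span over the 12. Its log2 fold change was 1.14 (SE 0.51) and did not pass either (adjusted p 0.976 by limma). The highest gland exceeded the lowest 1.67-fold for Crhr1, 1.82-fold for Avpr1b, 1.598-fold for Lifr and 1.47-fold for Il6st. The span was 1.77-fold for Neurod1, 2.31-fold for Gpr65 and 2.75-fold for Lif.

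Whether the signalling genes follow Pomc from gland to gland was tested by correlating log2(normalised count + 1) over the 12 glands. The family held 21 relations, the 7 genes by Pomc, the mean of 6 melanotroph markers and the mean of 10 posterior lobe markers. None of the 21 passed after Benjamini-Hochberg adjustment, by Pearson's r (smallest adjusted p 0.427, permutation test) or by Spearman's rho (smallest adjusted p 0.444). At an unadjusted permutation p under 0.05 there were 0 of 21 by Pearson's r and 2 of 21 by Spearman's rho, both for Crhr1. These were Crhr1 with Pomc (rho -0.60, permutation p 0.0430) and with the posterior lobe markers (rho -0.62, permutation p 0.0345). By Pearson's r, Crhr1 had -0.57 with Pomc, -0.53 with the melanotroph markers and -0.51 with the posterior lobe markers. The sign for Crhr1 was therefore negative with each of these measures. They are not independent, as Pax7, one of the melanotroph markers, had r 0.95 with Pomc. Whether the sign is particular to Pomc cannot be told from them. Pearson's r with Pomc lay between -0.57 (Crhr1) and 0.43 (Lif) over the 7 genes. Of 15275 other genes, 6.45% had a lower r with Pomc than Crhr1 and 86.4% a lower one than Lif, and 19.9% had an r of at least 0.5 in size. A difference between the groups can enter these pooled values. With group means removed and permutation within groups, 0 of 21 passed by Pearson's r (smallest adjusted p 0.620). Crhr1 then had r -0.45 with Pomc and -0.42 with the posterior lobe markers (permutation p 0.174 and 0.219). Lif then had r 0.53 with Pomc, and Lifr had 0.23.

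Tbx19, set beside them, had r 0.93 and rho 0.87 with Pomc (permutation p 2e-05 and 0.00058, adjusted p 2e-05 and 0.00058 over the pair with Pax7). Pax7 had r 0.95 and rho 0.97 (permutation p 1e-05 for both, the smallest that the 100000 resamples can give, adjusted p 2e-05). Both relations remained without vehicle 1 and vehicle 6, the glands farthest from the median of Pomc, at r 0.81 for Tbx19 and 0.95 for Pax7 (permutation p 0.00428 and 9e-05). For Tbx19, r was 0.72 among mimic and 0.97 among vehicle glands (n = 6 each, exact permutation p 0.0931 and 0.00833). For Pax7, r was 0.99 among mimic and 0.96 among vehicle glands (n = 6 each, exact permutation p 0.00278 and 0.00833).

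For Crhr1, r with Pomc was -0.57 (permutation p 0.0539, adjusted p 0.427) and rho was -0.60 (permutation p 0.0430, adjusted p 0.444). The value was -0.71 without vehicle 1 and vehicle 6 (unadjusted permutation p 0.0210). Within mimic glands it was -0.45 and within vehicle glands -0.46 (n = 6 each, exact permutation p 0.364 and 0.342). The sign was therefore negative in both groups, and the pooled and within-group values did not pass after adjustment. The value without vehicle 1 and vehicle 6 was not adjusted.

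For Avpr1b, r with Pomc was -0.31 and rho -0.09 (permutation p 0.327 and 0.782, adjusted p 0.624 and 0.974). Without vehicle 1 and vehicle 6 it was -0.72 (unadjusted permutation p 0.0202), so the pooled value depends on those glands. Within mimic glands r was -0.68 and within vehicle glands 0.19 (n = 6 each, exact permutation p 0.147 and 0.788), and without mimic 4 the pooled value was 0.026. The difference between the groups was not tested.

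For Neurod1, r with Pomc was -0.49 and rho -0.38 (permutation p 0.110 and 0.228, adjusted p 0.427 and 0.599). It was -0.25 in mimic and -0.67 in vehicle glands (n = 6 each, exact permutation p 0.644 and 0.0958), and -0.49 without vehicle 1 and vehicle 6. Without mimic 4 it was -0.32. Its lowest level of all 12 glands was in mimic 4, the gland with the most Pomc.

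In the LIF branch, r with Pomc was 0.43 for Lif, 0.40 for Lifr and 0.06 for Il6st (permutation p 0.165, 0.200 and 0.845, adjusted p 0.427, 0.427 and 0.934). The rho values were 0.21, 0.51 and -0.02 (permutation p 0.516, 0.0925 and 0.958, adjusted p 0.974, 0.485 and 0.974). Without vehicle 1 and vehicle 6, r was 0.28 for Lif, 0.42 for Lifr and -0.17 for Il6st. The value for Lif was 0.19 without mimic 4. Within mimic glands r was 0.52, 0.37 and -0.55, and within vehicle glands 0.60, 0.15 and 0.44 (n = 6 each, exact permutation p 0.319, 0.458, 0.263, 0.182, 0.785 and 0.357). Gpr65 had r -0.02 and rho 0.01 (permutation p 0.952 and 0.974, adjusted p 0.952 and 0.974), with -0.29 without vehicle 1 and vehicle 6, -0.37 in mimic and 0.12 in vehicle glands (n = 6 each, exact permutation p 0.478 and 0.797).

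**Figure D4:**
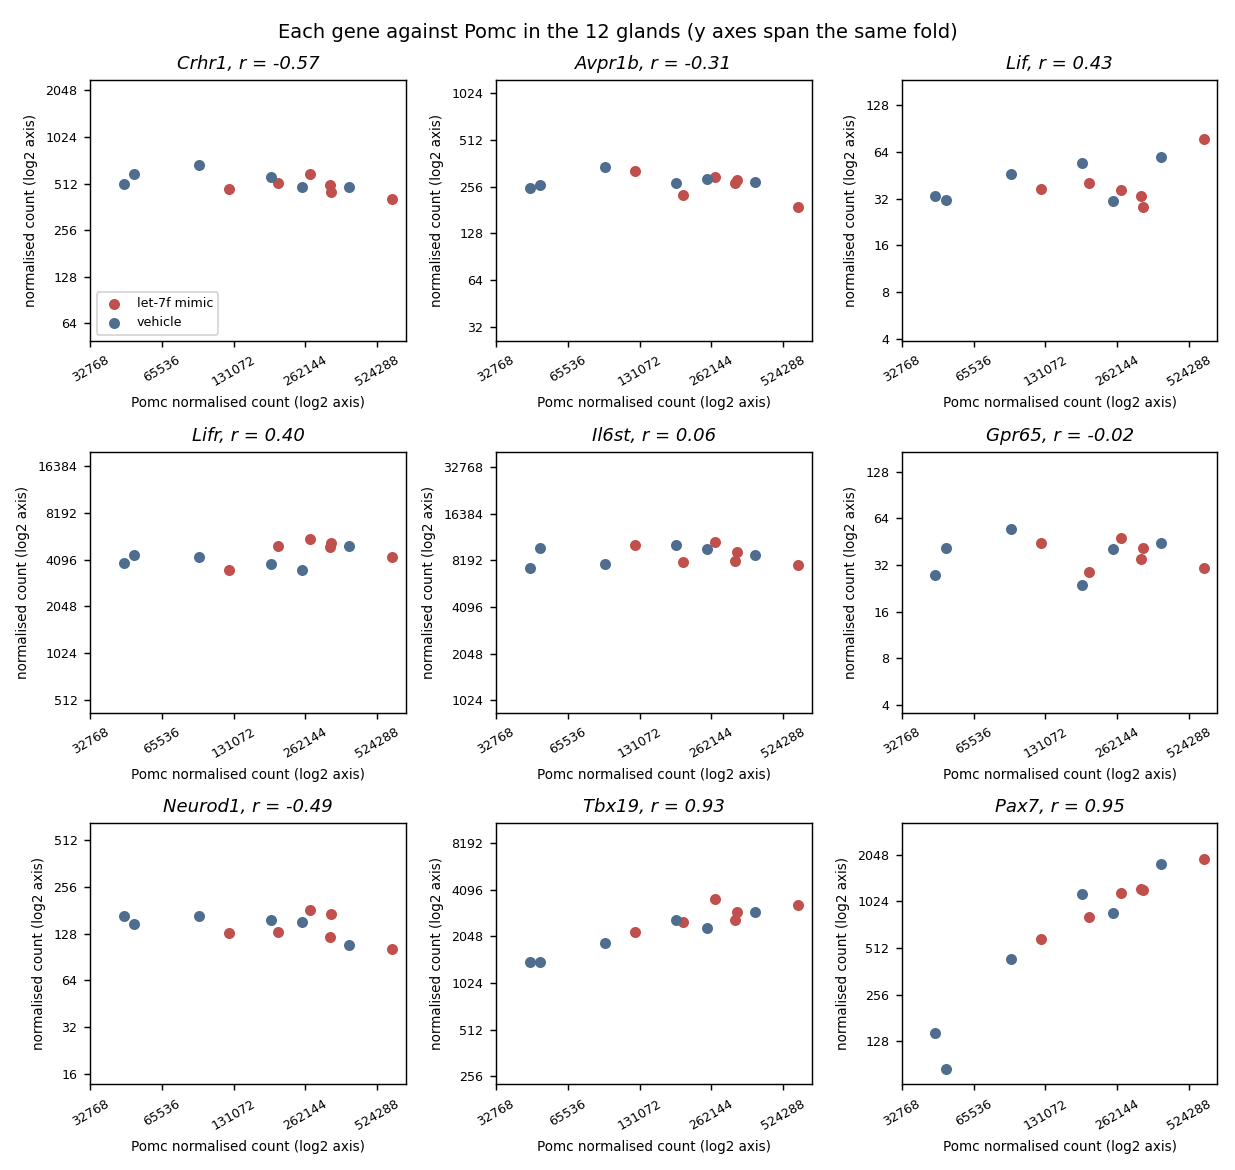
Each gene against Pomc in the 12 glands, in normalised counts on log2 axes whose vertical span covers the same fold in every panel, let-7f mimic in red and vehicle in blue. Over the 13.4-fold span of Pomc, the 7 signalling genes have r between -0.57 and 0.43, and Tbx19 and Pax7 have r 0.93 and 0.95.

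A doubling of Pomc went with a log2 difference of -0.10 for Crhr1 (95% interval -0.20 to 0.0015, least squares, n = 12 glands). The slope was -0.06 for Avpr1b (-0.19 to 0.07), 0.16 for Lif (-0.08 to 0.40), 0.08 for Lifr (-0.05 to 0.20) and 0.01 for Il6st (-0.11 to 0.13). It was -0.006 for Gpr65 (-0.22 to 0.21) and -0.11 for Neurod1 (-0.25 to 0.03). A level proportional to Pomc would give a slope of 1, which lay above all 7 intervals. It also lay above the interval of Tbx19, so an interval below 1 does not show that a gene fails to follow Pomc. The slope was 0.35 for Tbx19 (0.25 to 0.44), which lies within the interval of Lif, and 1.13 for Pax7 (0.88 to 1.38).

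Levels of other cell types' markers are given here beside the relations with Pomc. The melanotroph markers Pax7, Pcsk2, Oacyl, Drd2, Esm1 and Etv1 were all detected. Their summed level ranged from 16573 to 46508 normalised counts in mimic glands and from 7858 to 39781 in vehicle glands. Their mean log2 level was 11.7 ± 0.476 in mimic and 10.7 ± 1.13 in vehicle glands (± is the SD, n = 6 each, exact permutation p 0.0887, adjusted p 0.444 over 5 lists). The 10 posterior lobe markers summed to 7988 to 12791 in mimic and 1830 to 23356 in vehicle glands (exact permutation p 0.225, adjusted p 0.530, n = 6 each). With the melanotroph level as a covariate, 0 of the 7 genes passed, Crhr1 had a log2 fold change of -0.09, and Lif had -0.31, against -0.05 without the covariate. The part of these cells in the relations with Pomc was not tested.

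The 13 measured leukocyte and macrophage markers, Ptprc and Csf1r among them, summed to 4583 to 5371 in mimic and 4538 to 6911 in vehicle glands (exact permutation p 0.589, adjusted p 0.589, n = 6 each). Gpr65 correlated with their mean at r 0.39 and rho 0.50 over the 12 glands (permutation p 0.211 and 0.105, adjusted p 0.566 and 0.359 over 7 genes). The value was 0.43 without vehicle 3 and vehicle 5, 0.59 in mimic and 0.35 in vehicle glands. Which cells supplied the Gpr65 reads was not tested.

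Among themselves, the 7 genes formed 21 pairs, of which 0 passed after adjustment by Pearson's r (smallest adjusted p 0.246, permutation test) or by Spearman's rho (smallest adjusted p 0.0741). At an unadjusted permutation p under 0.05 there were 3 pairs by Pearson's r and 1 by Spearman's rho. The closest pair were Avpr1b and Gpr65, both lowest or nearly lowest in mimic 3 and mimic 4 among mimic glands, and highest in vehicle 4. They had r 0.68 and rho 0.79 (permutation p 0.0117 and 0.00353, adjusted p 0.246 and 0.0741). The value was 0.65 without the glands farthest from the median of Avpr1b, 0.86 in mimic and 0.70 in vehicle glands (n = 6 each, exact permutation p 0.0222 and 0.117).

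Crhr1 and Neurod1 had r 0.59 and rho 0.53 (permutation p 0.0445 and 0.0791, adjusted p 0.307 and 0.679), with 0.61 in mimic and 0.51 in vehicle glands. Crhr1 and Avpr1b, the receptors of the main releasing hormones, had r 0.56 and rho 0.20 (permutation p 0.0587 and 0.544, adjusted p 0.307 and 0.815). Without the glands farthest from the median of Crhr1, r was 0.32 with Neurod1 and -0.23 with Avpr1b. The sign was kept for Neurod1 and turned for Avpr1b. Leaving out these glands also narrows the range of Crhr1. Lif and Neurod1 had r -0.60 and rho -0.44 (permutation p 0.0366 and 0.154, adjusted p 0.307 and 0.679), and 0.0014 without the glands farthest from the median of Lif. Lifr and Il6st, whose products form the LIF receptor together, had r -0.04 and rho 0.02 (permutation p 0.898 and 0.956, adjusted p 0.963 and 0.991), with -0.02 in mimic and -0.09 in vehicle glands.

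**Figure D5:**
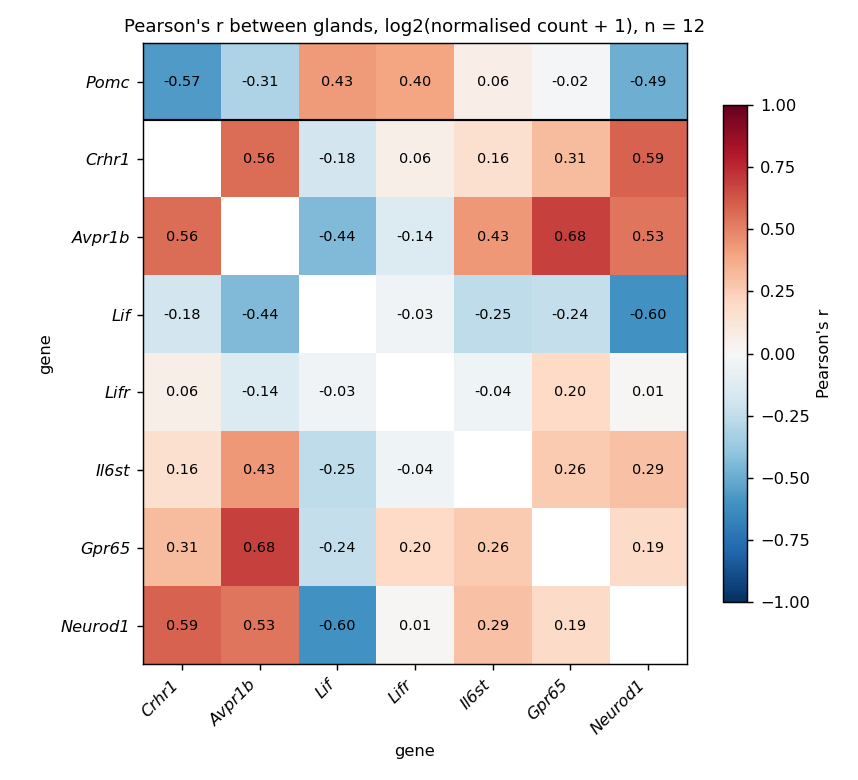
Pearson's r of log2(normalised count + 1) over the 12 glands for every pair of the 7 genes, with the correlation with Pomc in the top row. The highest value is 0.68 for Avpr1b with Gpr65 and the lowest is -0.60 for Lif with Neurod1. Lifr and Il6st stand at -0.04.

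The genes whose pattern was most like each of the 7 were ranked by Pearson's r over the 12 glands among 15276 genes with a mean of at least 50 normalised counts. They were Ccdc184, Pde12 and Tmem198 for Crhr1 (r 0.93, 0.92 and 0.91), and Eif2b1, Dnajb1 and Slc47a1 for Avpr1b (0.92, 0.90 and 0.89). For Gpr65 they were Pigp, Arl4d and Cept1 (0.92, 0.89 and 0.89), and for Neurod1 Rtl4, Ddx51 and Cnpy3 (0.87, 0.81 and 0.81). For Lif they were Srgap2, Traf3ip1 and Npas2 (0.89, 0.83 and 0.82), for Lifr Wdr76, Rnf138rt1 and Ypel2 (0.86, 0.86 and 0.85), and for Il6st Hras, Sspo and Nop9 (0.92, 0.86 and 0.85). As the highest of 15276 values over 12 glands, these r are high by selection. The number of genes with an r of at least 0.8 in size ran from 10 for Il6st to 156 for Gpr65. No corticotroph marker was among the 21 genes named, which are too few to say whether such markers follow the 7. The rank of Pomc among the 15276 in likeness was 1374 for Lif, 1684 for Lifr, 6504 for Il6st and 8378 for Gpr65. It was 11690 for Avpr1b, 14445 for Neurod1 and 14527 for Crhr1.

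The other genes of these pathways passed the limma threshold in 0 cases, as did 0% of all genes. Of the 5 fixed genes of the CRH family (Crh, Ucn, Ucn2, Ucn3 and Crhr2), none was in the table. Of the vasopressin and oxytocin genes, 3 of 5 were tested, and all 3 log2 fold changes were positive, 0.30 for the oxytocin receptor gene Oxtr (limma adjusted p 0.976) and 1.12 for Oxt. Oxt averaged 47.4 ± 17.01 normalised counts in mimic and 64.3 ± 81.6 in vehicle glands (± is the SD, n = 6 each), so that the mean on the linear scale and the change on the log2 scale differ in direction.

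Downstream of CRHR1, 26 of 26 genes of cyclic AMP and protein kinase A signalling were tested, 11 of them positive and 15 negative in log2 fold change (median -0.01). The smallest p belonged to Crem, a cyclic AMP-responsive transcription factor, at -0.23, and to the kinase gene Braf at 0.14. Downstream of AVPR1B, 19 of 19 genes were tested, 6 positive and 13 negative (median -0.05), led by the arrestin gene Arrb1 at 0.33 (SE 0.10) and the G protein gene Gna11 at -0.18 (SE 0.07). Arrb1 averaged 1994 ± 313 in mimic and 1577 ± 139 normalised counts in vehicle glands (± is the SD, n = 6 each). The limma adjusted p was 0.976 for each of these 4 genes.

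Of the other gp130 cytokines and receptors, 9 of 11 were tested, 5 positive and 4 negative (median 0.09), led by the interleukin-6 receptor gene Il6ra at 0.43 (SE 0.18) and by Cntf at 0.20. Il6ra averaged 1459 ± 347 normalised counts in mimic and 1094 ± 318 in vehicle glands (± is the SD, n = 6 each). Of the JAK and STAT3 genes, 12 of 12 were tested, 3 positive and 9 negative (median -0.10), led by Pias3, an inhibitor of STAT3, at -0.32 (SE 0.11) and the feedback inhibitor gene Socs1 at -0.54 (SE 0.31). The proton-sensing receptor gene Gpr4 had 0.10. The limma adjusted p was 0.976 for each of these 5 genes.

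Of the 15 lineage transcription factors and helix-loop-helix partners, all were tested, 7 positive and 8 negative (median -0.08). The smallest p belonged to Tbx19 at 0.49 (SE 0.19), with a limma adjusted p of 0.976.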

How the data were processed

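Per the submitters' processing notes, Trimmomatic 0.39, kallisto 0.50.1, DESeq2 1.48.2, FastQC 0.12.1, MultiQC 1.28 and build GRCm39 were used. The authors deposited 1 table whose 12 columns hold normalised counts, treated here as a signal. Within each library, 100% of values were whole multiples of a single step (tolerance 0.001 reads), from which recovered reads follow. One unnamed row, 0.0359% to 0.0567% of the reads, was left out. Reads shared by similar genes were apportioned upstream, which was not examined.

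Genes reaching 10 in 6 or more libraries (18390) were tested with limma-trend (limma 3.58.1, R 4.3.3) on log2(value + 1), two-sided, without covariates, at a Benjamini-Hochberg adjusted p under 0.05. This scale understates the change of low genes. Alternatives included edgeR 4.0.16 and DESeq2 1.42.0 on recovered reads. The limma and edgeR tests were also run on simulated counts, with outcomes not reported here. Correlations were tested by 100000 permutations, or by all 720 orders within a group of 6, and marker levels by all 924 assignments. No library was a repeat of another: the smallest chi-square per degree of freedom between replicates was 19.3. Intervals from reads cover counting error only.

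The members and lists were chosen with earlier results of these data known. Named are all members, Pomc, Tbx19 and Pax7, the 2 genes of smallest p of each pathway list, and the 3 genes most like each member, skipping unnamed gene models. Some results that this rule names are not reported here. The family of relations was planned with Crhbp and shrank to 21 without it.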

Additional observations from a re-analysis of the deposited data

Results flagged for a closer look

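Dixon's criterion at the 95% level marked 2 of 46 sets of 6 values (23 named genes in each group), where chance gives about 2.3. Lif in mimic 4 stood at 77.89 normalised counts, against 28.3 to 40.5 in the other mimic libraries. Neurod1 in vehicle 5 stood at 108.2, against 148 to 168 in the other vehicle libraries. Each of these libraries had the highest Pomc of its group, 606984 in mimic 4 and 400805 normalised counts in vehicle 5.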

How the results depend on the processing

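Of the 7 genes, 0 passed the threshold under each of the 12 alternatives and the 12 fits without a library. Over the whole table the count was 0 throughout except for DESeq2, which called 10 genes, none of them among the 7, and gave no adjusted p for Lif and Gpr65. Changes near 0 turned their sign. Il6st was at -0.0213 with library weights, -0.0223 with the melanotroph level and -0.0380 with the posterior lobe level as a covariate. Gpr65 was at 0.0510 with library weights and 0.0151 with the melanotroph covariate, where Neurod1 was at 0.0087. Without each library in turn, the log2 fold change ranged from -0.0518 to 0.0513 for Il6st, -0.1288 to 0.1060 for Gpr65 and -0.2384 to 0.0567 for Lif. The others kept their sign, Crhr1 from -0.2268 (without mimic 2) to -0.1096 (without vehicle 4), Lifr from 0.1375 to 0.2727, Avpr1b from -0.1651 (without mimic 1) to -0.0111 (without mimic 4) and Neurod1 from -0.2045 (without vehicle 5) to -0.0317 (without mimic 4). Lif was lowest without mimic 4, and was at -0.3131 with the melanotroph covariate and -0.1565 with the posterior lobe covariate. With Pomc, r ranged from -0.4716 to 0.0260 for Avpr1b, -0.2867 to 0.1327 for Gpr65 and -0.2656 to 0.2762 for Il6st, from -0.7038 to -0.4311 for Crhr1, 0.1864 (without mimic 4) to 0.5639 for Lif, 0.3197 to 0.5010 for Lifr and -0.6074 to -0.3185 (without mimic 4) for Neurod1. The cause was not tested. Libraries of the same replicate number showed little common deviation (correlations -0.149 to 0.086). Of the mimic libraries, only mimic 6 was most like the vehicle library of its own number. What the number stands for is not given, and a shared litter, dam or batch was not tested. With the replicate number as a block, 0 genes passed (837 at an unadjusted limma p under 0.05), Crhr1 had r -0.758 with Pomc (exact permutation p adjusted 0.554, 6 pairs) and Lifr turned to -0.489. With a minimum of 50, Lif and Gpr65 gave no value. Their 26 to 69 reads per library limit what could be detected, as do 6 glands a group.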

Other observations

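Vehicle 4 had the highest level of Crhr1, Avpr1b and Gpr65 of all 12 glands, at 678, 345 and 55.1 normalised counts. It also had the highest summed level of the gonadotroph markers Lhb, Fshb, Gnrhr and Nr5a1, at 60615 normalised counts, against 26299 to 42421 in the other 11 glands. Vehicle 4 was the library with the fewest recovered reads over named genes, 26378308. It had the most genes at 0 reads, 56, against 10 to 28 in the other libraries. Mimic 4 had the lowest Crhr1, Avpr1b and Neurod1, at 406, 190 and 103, and the highest Pomc, Pax7 and Lif. These libraries were pointed out after their values were seen. The parts of the gland's cell make-up and of library depth in them were not tested.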
